A study of Mus musculus with 6 samples.

Results

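The 8 genes described here mark the neurogenic path of the olfactory epithelium, from its multipotent progenitors to the precursors about to become neurons: Sox2, Pax6, Eya1, Eya2, Neurog1, Neurod1, Insm1 and Kit. They were chosen by symbol, each through its probe set of highest average signal, and are 8 of 19938 genes measured. Each of them had 1 probe set. They are not all transcription factors. Sox2, Pax6, Neurog1, Neurod1 and Insm1 bind DNA, Eya1 and Eya2 are coactivators with phosphatase activity, and Kit is a receptor tyrosine kinase.

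Mouse embryos of E18.5 on a C57BL/6 background gave the cells, taken from their main olfactory epithelium. Every embryo carried at least 1 targeted Fezf1 allele with EGFP under the endogenous Fezf1 promoter, so heterozygous (Fezf1 +/-) cells had 1 such allele, null (Fezf1 -/-) cells had no intact allele, and wild-type cells are not part of the comparison. Cells that used the Fezf1 promoter were sorted by fluorescence, and their RNA was read on Affymetrix Mouse Gene 1.0 ST arrays, 1 per sort and 3 per genotype. The comparison asked how these cells differ when Fezf1, a zinc-finger transcription factor, is missing.

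New olfactory neurons arise from basal cells throughout life. Horizontal basal cells are a quiescent reserve, globose basal cells divide, and a cascade of basic helix-loop-helix factors moves their daughters from progenitor to neuronal precursor to neuron. Sox2 and Pax6 are present in basal progenitors and also in sustentacular cells, the supporting cells of the epithelium, and Pax6, Sox2 and the Eya genes are likewise genes of the developing eye. Neurog1 acts in committed precursors, Neurod1 follows as they leave the cell cycle, Insm1 favours the divisions that yield neurons, and Kit marks globose basal cells committed to neurons. A sort holds many cells, so fewer cells of a type and less RNA per cell cannot be told apart in these values.

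Values are log2 signals of a probe set on an array. They are compared only within a gene, because probe sets bind with different strength. Differences are null minus heterozygous on that log2 scale, with the standard error (SE) and the p-value of limma, adjusted by Benjamini-Hochberg over all genes with a threshold of 0.05. The array medians lay between 5.82 and 5.95, and the number of arrays limits the precision.

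The labels were first checked against Fezf1 itself. It stood at 11.25, 11.12 and 11.30 on the heterozygous arrays and at 5.56, 5.92 and 6.28 on the null arrays (difference -5.31, SE 0.19, adjusted p = 0.000755). Over all genes 110 passed the threshold, which is 0.552% of those tested.

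A pair of arrays stood apart, and each bears on values given below for the 8 genes. Null replicate 1 correlated with the other arrays at 0.905 to 0.935 across genes, against 0.975 to 0.995 among the other 5. On it the mean level of 12 mesenchyme and bone markers was 9.66, against 6.17 to 7.10 elsewhere, that of 14 myeloid markers was 7.51 against 5.20 to 5.54, and that of 8 ensheathing glia markers was 8.07 against 6.03 to 6.51. The 19 mature neuron markers had a mean of 7.57 there and of 8.89 to 9.92 elsewhere.

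Heterozygous replicate 2 carried transcripts of the eye. The lens crystallin gene Cryaa stood at 11.42 on it and between 5.18 and 5.52 on the other 5 arrays. Crybb1 stood at 10.78 against 6.43 to 6.93, and Cryga at 10.34 against 4.85 to 5.03. Retinal genes were high there too, such as the photoreceptor regulator Crx at 6.89 against 4.57 to 4.99, and the retinal homeobox gene Rax at 7.25 against 5.17 to 5.55. Of 22 lens genes 17 were highest on this array, and of 21 retinal genes 13, with lists written after the crystallins had been seen. The mean of the 21 retinal genes was 6.03 on it, 5.10 on heterozygous replicate 3 and 4.89 to 4.98 on the others. The retinal gene Rorb stood at 8.48, 5.79 and 4.51 to 5.11 in the same order. On heterozygous replicate 3 the mean of the 22 lens genes was 5.29 and Crx stood at 4.88, neither above the others. The fits without heterozygous replicate 2 still hold heterozygous replicate 3. The pigment cell gene Tyrp1 stood at 6.20 on heterozygous replicate 2 and between 4.39 and 4.55 on the others. Results are therefore given over all 6 arrays, without null replicate 1, and, where it matters, also without heterozygous replicate 2.

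Promoter sequence was available for Sox2, Pax6, Kit, Neurog1 and Neurod1 in RefSeq windows of build GRCm38.p6, and the windows of Neurog1 and Neurod1 are shown because these consecutive proneural genes encode proteins that bind the E-box, CANNTG. Each window holds the 250 bases before the annotated start, read 5′ to 3′ on the minus strand, and capitals mark an E-box. Both strands were covered, since CANNTG is its own reverse complement. The Neurog1 window is chr13:56252181-56252430 and the Neurod1 window chr2:79456637-79456886.
Neurog1: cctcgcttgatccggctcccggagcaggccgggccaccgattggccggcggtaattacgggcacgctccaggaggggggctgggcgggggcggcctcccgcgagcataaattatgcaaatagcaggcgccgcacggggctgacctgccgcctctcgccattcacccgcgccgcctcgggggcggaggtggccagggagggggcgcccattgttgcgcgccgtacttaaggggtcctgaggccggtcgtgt
Neurod1: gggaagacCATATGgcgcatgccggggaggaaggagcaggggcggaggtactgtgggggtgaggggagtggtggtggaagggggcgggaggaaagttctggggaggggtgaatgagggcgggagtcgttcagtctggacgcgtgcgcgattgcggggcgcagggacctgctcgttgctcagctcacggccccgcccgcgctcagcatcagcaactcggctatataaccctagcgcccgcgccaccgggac

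The Neurod1 window held 1 E-box, CATATG, and the Neurog1 window 0. Neither held the forms CAGCTG or CAGATG, the latter searched on both strands. Of 32851 windows of the same length in the table, 66.2% held at least 1 CANNTG, 13.0% held CAGCTG and 14.4% held CAGATG. Kit and Sox2 had no CANNTG in any window, and Pax6 had 1 in the window of its second annotated start and 0 in that of its first.

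Over all 6 arrays none of the 8 genes passed the threshold by limma, and Pax6 and Eya2 had an unadjusted p under 0.05, both higher, as had 9.48% of all genes (4.23% higher and 5.25% lower). Differences were positive in 5 of the 8 genes, 0.00 to the printed digits in Neurog1 and negative in Sox2 and Insm1, and 10926 of the 19938 genes had a positive difference. The median was 0.28, against 0.02 over all genes. Without null replicate 1 Eya2 rose and the other 7 did not pass, where 2.66% of all genes were called. In those 5 arrays 5 of the 8 genes had an unadjusted p under 0.05, 4 higher and 1 lower, beside 16.3% of all genes (7.63% higher and 8.68% lower). Both remaining null arrays lay above every heterozygous one for Pax6, Eya2, Kit and Neurod1, for Neurog1 by less than the printed digits, and below for Sox2, which 19.9% and 16.3% of all genes did (36.2% in all). A fit added after the values were seen left out heterozygous replicate 2 as well. In it Pax6 rose and Eya2 no longer passed, beside 1.67% of all genes called.

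**Figure D1:**
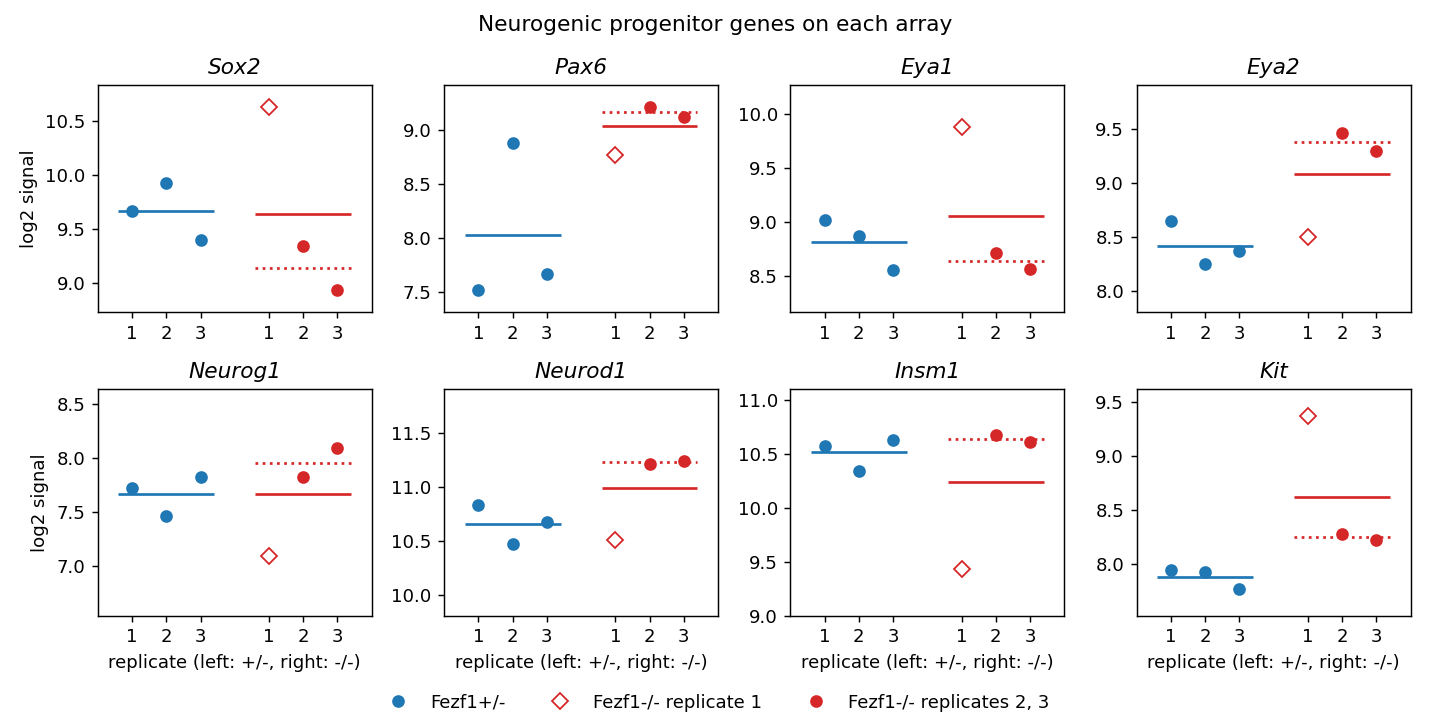
Log2 signal of the 8 genes on each array, heterozygous (blue) and null (red), by replicate number; solid lines are group means over 3 arrays, dotted lines the mean of null replicates 2 and 3, and every panel spans the same 2.1 log2 units. Null replicate 1 (open diamond) lies far from the other null arrays in most panels, and heterozygous replicate 2 lies with the null arrays for Pax6.

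Sox2, an HMG-box factor that keeps progenitors uncommitted, stood at 9.67, 9.93 and 9.40 on heterozygous replicates 1, 2 and 3 and at 10.63, 9.35 and 8.94 on null replicates 1, 2 and 3. The highest and the lowest value both belonged to null arrays, so the groups overlapped. The difference was -0.03 (SE 0.44, 95% confidence interval -1.09 to 1.04, adjusted p = 0.987). On the other 5 arrays both null values lay below all heterozygous ones, by a difference of -0.52 (SE 0.19, adjusted p = 0.249, unadjusted p = 0.0302). Sustentacular markers had the same order of extremes, with a mean of 9.55 over 13 genes on null replicate 1, 8.47 and 8.42 on the other null arrays and 8.65 to 9.07 on the heterozygous arrays; their part in the Sox2 values was not tested. Sox2 lies within the longer noncoding gene Sox2ot, so its signal is uncertain where the transcripts overlap.

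Pax6, a paired-box and homeodomain factor of olfactory progenitors, stood at 7.52, 8.88 and 7.67 on the heterozygous arrays and at 8.77, 9.21 and 9.12 on the null arrays. All null arrays lay above heterozygous replicates 1 and 3, while heterozygous replicate 2, the array with lens and retinal transcripts, lay among them. The difference was 1.01 (SE 0.37, 95% confidence interval 0.09 to 1.92, adjusted p = 0.48), a 2.01-fold higher signal. It was 1.44 without heterozygous replicate 2 alone (adjusted p = 0.101). Without that array and null replicate 1 Pax6 rose by 1.57 (SE 0.11, 95% confidence interval 1.30 to 1.85, limma adjusted p = 0.00572). This 2.97-fold increase rests on 2 arrays a group, in a fit added after the values were seen. That fit leaves out the highest heterozygous value of Pax6, so its p-value is a description only. The heterozygous values spanned 1.36, the widest heterozygous range among the 8 genes.

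On heterozygous replicate 2 Pax6 stood 1.29 above the mean of the other heterozygous arrays, and 49 of the 19938 genes stood at least as far above them. Among those 49 were Cryaa, Cryba1, Cryga and Neurod4, the last at 8.02 against 4.51 and 5.43. The other members were closer to their group on that array, with Sox2 0.40 above the mean of the other heterozygous arrays and Neurog1 the farthest below at -0.31.

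Eya1 and Eya2, coactivators of sensory placode development, took different courses. Eya1 stood at 9.02, 8.87 and 8.55 on the heterozygous and at 9.88, 8.71 and 8.56 on the null arrays. Only null replicate 1 lay above the heterozygous range, and the difference was 0.24 (SE 0.37, 95% confidence interval -0.66 to 1.13, adjusted p = 0.843). Without that array the sign turned, at -0.18 (SE 0.15, 95% confidence interval -0.54 to 0.18, adjusted p = 0.613).

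Eya2 stood at 8.65, 8.25 and 8.37 on the heterozygous arrays and at 8.50, 9.47 and 9.30 on the null arrays. Null replicates 2 and 3 lay above every heterozygous value, and null replicate 1 lay within the heterozygous range. The difference over all arrays was 0.67 (SE 0.27, adjusted p = 0.523). Without null replicate 1 Eya2 rose by 0.96 (SE 0.14, 95% confidence interval 0.63 to 1.30, adjusted p = 0.0203), a 1.95-fold increase. With heterozygous replicate 2 also left out the difference was 0.88 (SE 0.14, adjusted p = 0.056), which missed the threshold.

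Neurog1, the first of the proneural factors considered here, stood at 7.72, 7.46 and 7.82 on the heterozygous arrays and at 7.09, 7.82 and 8.09 on the null arrays. The group means were both 7.67, with SDs of 0.18 and 0.52 (n = 3 each), and the difference was 0.00 (SE 0.27, 95% confidence interval -0.66 to 0.66, adjusted p = 1.0). Leaving that first null array out, null replicate 2 stood level with the top of the heterozygous range to the printed digits and null replicate 3 above it, a difference of 0.29 (SE 0.14, adjusted p = 0.378).

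Neurod1, which Neurog1 induces in neuronal precursors, stood at 10.83, 10.47 and 10.67 on the heterozygous arrays and at 10.51, 11.21 and 11.24 on the null arrays. Null replicates 2 and 3 lay 0.03 apart and above every heterozygous value, while null replicate 1 lay near the bottom of the heterozygous range. The difference was 0.33 (SE 0.23, 95% confidence interval -0.22 to 0.88, adjusted p = 0.694) over all arrays. It was 0.57 without null replicate 1 (SE 0.12, 95% confidence interval 0.27 to 0.87, adjusted p = 0.0759, unadjusted p = 0.00291), above in both null arrays but not past the threshold.

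Insm1, a zinc-finger factor of dividing and newly committed neuronal precursors, stood at 10.57, 10.34 and 10.63 on the heterozygous arrays and at 9.43, 10.67 and 10.61 on the null arrays. Null replicate 1 lay 1.21 below the mean of the other null arrays, which fell at the top of the heterozygous range. The difference was -0.27 (SE 0.34, adjusted p = 0.807) with that array and 0.13 (SE 0.11, 95% confidence interval -0.15 to 0.40, adjusted p = 0.637) without it.

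Kit, the receptor for stem cell factor, stood at 7.94, 7.93 and 7.77 on the heterozygous arrays and at 9.37, 8.28 and 8.22 on the null arrays. It was the single gene of the 8 whose null values all lay above all heterozygous values, as did those of 9.72% of all genes. The difference was 0.74 (SE 0.32, adjusted p = 0.537) and without null replicate 1 it was 0.37 (SE 0.10, 95% confidence interval 0.13 to 0.60, adjusted p = 0.129), still above in both arrays. Mast cells and melanocytes also express Kit. The mean of 9 mast cell markers was 5.29 on null replicate 1 and 4.45 to 4.65 elsewhere. Of these 9, 5 (Mcpt4, Cma1, Tpsab1, Ms4a2 and Fcer1a) lay below the lower quartile of all genes on every array. The mean of 10 melanocyte markers was 5.62 on heterozygous replicate 2 and 4.91 to 5.34 elsewhere, with 2 of them (Tyr and Gpr143) below that quartile on every array. The part of these cells in the Kit values was not tested.

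**Figure D2:**
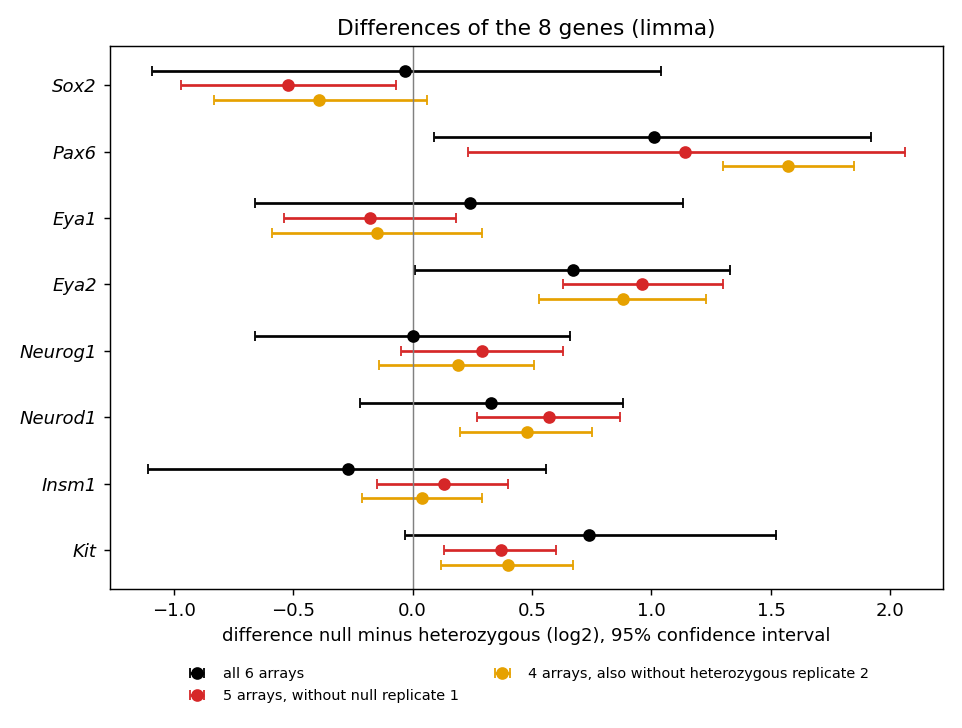
Difference null minus heterozygous in log2 units (points) with 95% confidence intervals (bars) from limma, over all 6 arrays (black), without null replicate 1 (red) and also without heterozygous replicate 2 (yellow). The interval of Eya2 narrows and moves away from 0 without null replicate 1. That of Pax6 does so once heterozygous replicate 2, its highest heterozygous value, is also left out. The fit in yellow was added after the values were seen. The points of Eya1 and Insm1 change side.

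Among themselves the 8 genes moved in opposite directions across arrays. On null replicate 1, Sox2, Eya1 and Kit lay 1.48, 1.25 and 1.12 above the mean of the other null arrays, and Insm1, Eya2, Neurog1, Neurod1 and Pax6 lay below it, by values of -1.21, -0.88, -0.87, -0.72 and -0.40. The part of the other cell types seen on that array in these shifts was not tested.

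**Figure D3:**
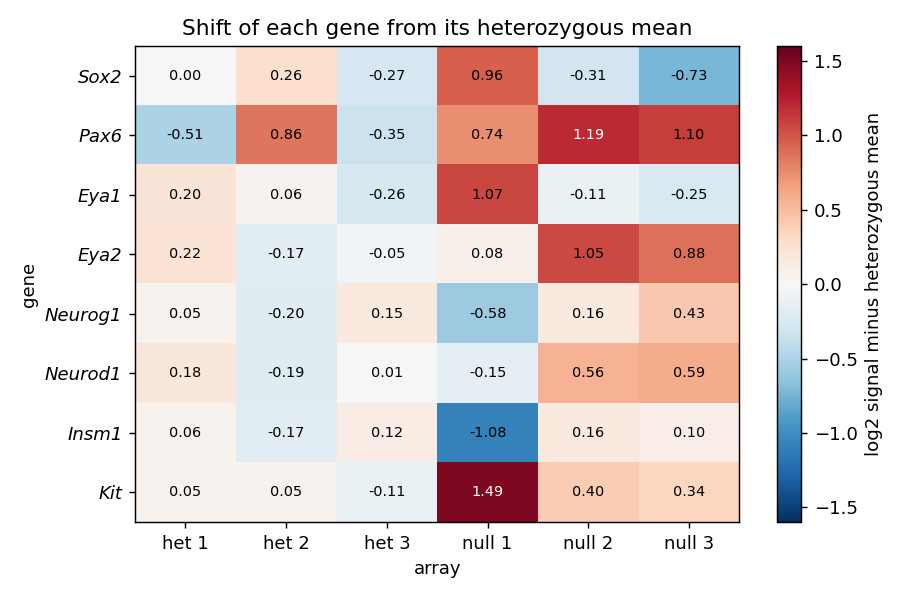
Log2 signal of each gene (rows) on each array (columns) minus that gene's heterozygous mean, with the value printed in each cell; red is higher and blue lower. Pax6, Eya2, Neurod1 and Kit are red on null replicates 2 and 3, and Insm1 is -1.08 on null replicate 1.

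All 28 pairs of the 8 genes were correlated over the 6 arrays, with two-sided exact permutation p-values adjusted over the pairs. Sox2 and Neurog1 ran in opposite order, with a Pearson r of -0.995 (exact permutation p = 0.00139, adjusted p = 0.0389) and a Spearman rho of -1.0 (exact permutation p = 0.00278, adjusted p = 0.0778). Without the 2 arrays farthest from the median of Sox2, null replicates 1 and 3, r was -0.966, and within the 3 heterozygous arrays it was -0.967. By rho no pair passed after adjustment, and by r no other pair did. Both exact p-values of Sox2 and Neurog1 are the smallest that 6 arrays allow, so by rho a lone pair could not pass. By r a lone pair could pass only at that smallest value, so nothing is concluded from the other pairs. Eya2 and Neurod1 had an r of 0.957 (exact permutation p = 0.00972, adjusted p = 0.07), which became 0.733 without null replicates 2 and 3. Sox2 and Pax6, both progenitor genes, had an r of -0.045 (exact permutation p = 0.94, adjusted p = 0.974). The permutations treat the 6 arrays as exchangeable, although they hold both genotypes and null replicate 1 stands apart. Their p-values therefore do not measure a relation between the genes alone. High positive correlations were common over these arrays. Of 5188 genes with an SD of at least 0.3, 253 had an r of at least 0.95 with Sox2 and 80 with Neurog1. Strongly negative correlations were not counted, so these counts do not show how common an r like that of this pair was. All genes of an array share its cell make-up, whose part in these correlations was not tested.

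**Figure D4:**
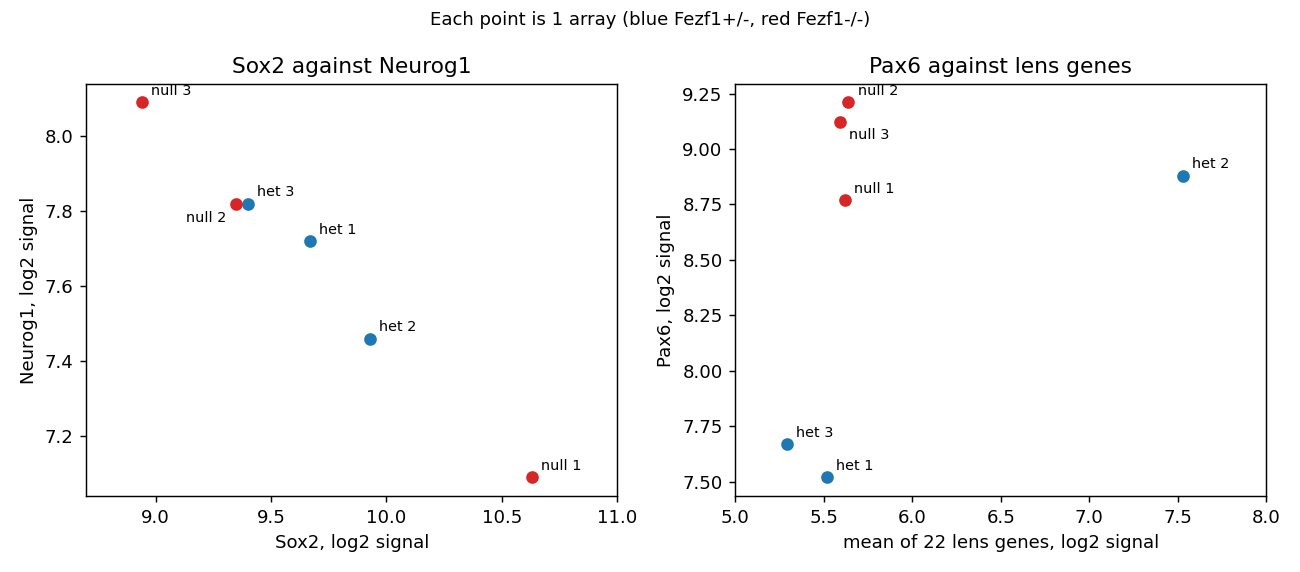
Left, log2 signal of Neurog1 against that of Sox2 on the 6 arrays; right, log2 signal of Pax6 against the mean log2 signal of 22 lens genes; heterozygous arrays are blue and null arrays red. Neurog1 goes from 8.09 to 7.09 as Sox2 goes from 8.94 to 10.63, and heterozygous replicate 2 is the single array with a lens mean (7.53) above 5.64.

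The genes whose pattern over the 6 arrays was most like that of each member, by Pearson r among 5188 genes with an SD of at least 0.3, are given as a description. For Sox2 they were Dhrs4 (0.9998), Cmbl (0.9969) and Atf3 (0.9968). For Pax6 they were Mid1 (0.9829), Zfp536 (0.9313) and Mab21l2 (0.9157), and 1 gene in all reached 0.95. For Eya1 they were Ptprm (0.9989), Dcn (0.9987) and Mir7-1 (0.9979), and 674 genes reached 0.95. Without null replicate 1 the counts at 0.95 were 21 for Pax6 and 54 for Eya1, so the count of Eya1 rests on that array. The count also fell for Insm1 (563 to 41), Kit (375 to 103), Sox2 (253 to 113) and Neurog1 (80 to 40). It rose for Eya2 (44 to 155) and Neurod1 (19 to 114). The most alike genes for Eya2 were Sult6b1 (0.9946), Ube2d1 (0.9915) and Itgb6 (0.9913), and for Kit Ntrk2 (0.9993), Dpyd (0.9986) and Grn (0.9985). For Neurog1 they were Kidins220 (0.9913), Olfr1010 (0.9878) and Olfr522 (0.9855), for Neurod1 Thsd7b (0.991), Afap1 (0.9859) and Vmn1r180 (0.982), and for Insm1 Rusc1 (0.9996), Apba2 (0.9995) and Tmtc4 (0.9985). Over the 5 arrays without null replicate 1, Dhrs4, Ntrk2, Kidins220, Rusc1 and Apba2 were again among the top 3 of the same member, and Nhlh2, a helix-loop-helix gene of differentiating neurons, was among those of Neurod1.

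The other genes of the cascade, 19 globose basal and proneural genes, had 0 calls by limma over all arrays and 1 unadjusted p under 0.05. Their median difference was 0.11. The Notch ligand gene Dll1, which precursors use to hold back their neighbours, stood at 5.97, 6.00 and 5.69 on the heterozygous arrays and at 6.35, 6.44 and 6.39 on the null arrays (difference 0.51, adjusted p = 0.199). Its null values all lay above the heterozygous ones. Hes6, an inhibitor of Hes1 that favours neurogenesis, differed by -0.25 (adjusted p = 0.53).

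Leaving out null replicate 1, there were again 0 calls in this cascade by limma, while 7 genes were higher and 3 lower by unadjusted p under 0.05. The differences of Nhlh1 and St18 were 0.53 (SE 0.11, adjusted p = 0.0653) and 0.47 (SE 0.10, adjusted p = 0.0772), and Nhlh2 differed by 0.40 (SE 0.11, adjusted p = 0.144). Nhlh2 is named for its likeness to Neurod1 on these arrays, and Nhlh1 and St18 for the smallest p-values of the list.

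Regional factors of the olfactory placode numbered 16 and had 0 calls by limma over all arrays, while unadjusted p was under 0.05 for 2 genes, both higher. The homeobox gene Meis1 differed by 0.90 (adjusted p = 0.13) and Id2, which blocks helix-loop-helix factors by forming inactive dimers with them, by 0.72 (adjusted p = 0.151). In the 5 arrays without null replicate 1 Meis1 rose by 1.00 (SE 0.16, adjusted p = 0.0273) and Id2 differed by 0.72 (SE 0.15, adjusted p = 0.0715). Id2 stood at 9.41, 9.70 and 9.32 on the heterozygous arrays and at 10.19, 10.35 and 10.03 on the null arrays, with no overlap.

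The 23 paralogues of the 8 genes had 0 calls by limma in either fit, with 1 gene over all arrays and, leaving out null replicate 1, 3 higher and 3 lower genes with unadjusted p under 0.05. Pax8 differed by 0.37 (adjusted p = 0.33) and Neurod4 by -1.93 (adjusted p = 0.56), the latter at 8.02 on heterozygous replicate 2 and between 3.72 and 5.43 on the other arrays. Sox9, a factor of glands and supporting cells, differed by -0.18 over all arrays (adjusted p = 0.907) and by -0.71 without null replicate 1 (SE 0.14, adjusted p = 0.0506). Pdgfra, a mesenchymal receptor of the same family as Kit, stood at 10.77 on null replicate 1 and between 6.74 and 7.89 on the others.

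Around Kit, 18 signalling genes had 0 calls by limma over all arrays, while unadjusted p was under 0.05 for 2 genes, both higher, Spry2 (0.97, adjusted p = 0.126) and Gab2 (0.42, adjusted p = 0.39). Kitl, which encodes the Kit ligand, stood at 6.69, 6.90 and 6.91 on the heterozygous arrays and at 7.71, 6.11 and 6.08 on the null arrays. In the 5 arrays without null replicate 1 Kitl fell by 0.74 (SE 0.11, adjusted p = 0.0203), against -0.20 over all arrays (adjusted p = 0.891) and -0.71 without heterozygous replicate 2 as well (adjusted p = 0.0675). Spry2, a feedback inhibitor of receptor tyrosine kinases, rose by 1.03 in those 5 arrays (SE 0.18, adjusted p = 0.0377), and without heterozygous replicate 2 as well it differed by 0.92 (adjusted p = 0.0928). It stood at 9.33, 8.75 and 8.87 on the heterozygous and at 9.81, 10.10 and 9.94 on the null arrays.

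Dividing progenitors were followed through 18 DNA replication and 19 mitosis genes. Over all arrays both lists had 0 calls by limma and 0 unadjusted p under 0.05, with medians of 0.05 and -0.06. Leaving out null replicate 1, they again had 0 calls, with 5 replication genes lower and 0 mitosis genes at an unadjusted p under 0.05, and medians of -0.15 and -0.18. In that fit the smallest p-values among replication genes were those of Tyms (-0.38, adjusted p = 0.0956) and Mcm4 (-0.34, adjusted p = 0.161). Among mitosis genes they were those of Aurkb (-0.29, adjusted p = 0.332) and Cdk1 (-0.22, adjusted p = 0.335). In the fit over all arrays Gins2 (0.22), Ccne1 (0.43), Ube2c (-0.15) and Tpx2 (-0.20) had the smallest p-values.

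**Figure D5:**
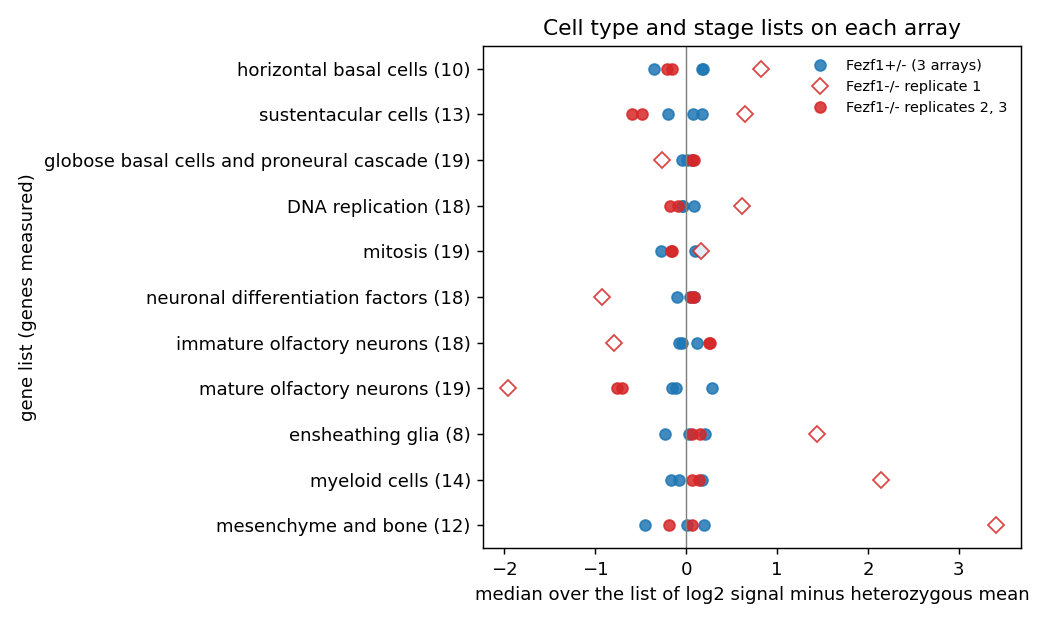
Median over each gene list (rows, with the number of genes measured) of log2 signal minus the heterozygous mean on each array; heterozygous arrays are blue, null replicate 1 is an open diamond and null replicates 2 and 3 are red. Null replicate 1 lies at 3.41 for mesenchyme and bone and at -1.96 for mature neurons. The median of the proneural cascade list stays between -0.26 and 0.09 on all arrays, although genes within that list moved in both directions.

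Around these stages, the 10 horizontal basal cell genes had a median difference of 0.14 with Krt15 at 0.78 (adjusted p = 0.557), and of -0.16 without null replicate 1, with 0 calls by limma and 0 and 1 unadjusted p under 0.05. The 18 neuronal differentiation factors had medians of -0.16 and 0.08, with Ebf4 at -0.82 over all arrays (adjusted p = 0.46). Nfix fell by 0.72 in the 5 arrays (adjusted p = 0.0416), against -0.20 over all arrays (adjusted p = 0.89) and -0.72 in the 4 arrays (adjusted p = 0.121). The 18 immature neuron genes had medians of -0.11 and 0.32, with 0 calls by limma over all arrays and unadjusted p under 0.05 for 1 higher and 1 lower gene. In the 5 arrays 9 were higher and 1 lower at that limit, beside 7.63% and 8.68% of all genes. By adjusted p 3 rose there, beside 0.993% of all genes: Stmn4 by 0.94, Chl1 by 0.77 and Ablim1 by 0.71 (adjusted p = 0.0236, 0.0127 and 0.0166). Over all arrays these differed by 0.35, 1.15 and 0.38 (adjusted p = 0.826, 0.319 and 0.709). Among 12 microvillar genes Atp6v1b1 fell by 0.72 in the 5 arrays (adjusted p = 0.0455), against -0.34 over all arrays (adjusted p = 0.761) and -0.71 in the 4 arrays (adjusted p = 0.131). Among 9 forebrain genes Emx1 rose by 0.84 in the 5 arrays (adjusted p = 0.0183), against 0.66 over all arrays (adjusted p = 0.296). The 19 mature neuron genes had medians of -1.14 and -0.78, with 0 calls by limma and 12 unadjusted p under 0.05 over all arrays, and 6 genes that fell in the 5 arrays, among them Kirrel2 by 1.21 (adjusted p = 0.0083), which differed by -1.67 over all arrays (adjusted p = 0.233). The 13 sustentacular genes had medians of -0.15 and -0.58. By limma 1 was higher at an unadjusted p under 0.05 over all arrays, and 1 was higher and 8 lower in the 5 arrays. In the 5 arrays Ermn fell by 0.96 (adjusted p = 0.024), against -0.48 over all arrays (adjusted p = 0.737) and -0.95 in the 4 arrays (adjusted p = 0.0797).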

How the data were processed

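The authors deposited a log2 signal for each probe set. Per the submitters' processing notes, Affymetrix Expression Console and GCRMA were used; order, versions and filters are not given in the sources used here, and base 2 was inferred from the range. RNA came from a micro kit with 100 ng labelled, per the labels' protocols. GCRMA subtracts an estimated background, which can alter differences near the bottom of the range. Probe sets with 1 symbol in the 2016 platform annotation (21789 of 35557) were kept, 21698 of them with the RefSeq name of GRCm38.p6 found through Entrez numbers, giving 19938 genes, without a filter.

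Groups came from the sample titles. limma 3.58.1 (R 4.3.3; lmFit and eBayes, two-sided) tested null against heterozygous. Whether replicates are separate embryos or pools is not in the labels, so p-values measure only the spread between these samples. The 8 genes and all lists were chosen with earlier results of these data known. Genes to name were the 8, Fezf1, up to 4 called genes per list by size or the 2 with the smallest p, and the 3 most alike per gene over 6 and over 5 arrays; not all of them are printed. The eye genes, Tyrp1 and the fit without 2 arrays were added after seeing values. In simulated data with 6 arrays, 58% of 2-fold and 82% of 4-fold changes were recovered. In simulated data without null replicate 1, 69% and 93% were recovered. The simulations changed 200 of 19938 genes and used independent normal noise, with each gene's spread equal in both groups. Shifts shared by many genes of an array, such as those of null replicate 1, were not simulated. The percentages are therefore not the power for the 8 genes.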

Additional observations from a re-analysis of the deposited data

How the results depend on the processing

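Over all arrays 0 of the 8 genes passed. With array weights, which gave null replicate 1 a weight of 0.136, 1 did (Eya2, 0.99, adjusted p = 0.0151), and leaving out an array gave 0 to 1. In 2 fits added after seeing the data, 1 passed in each: quantile normalization without null replicate 1 (Eya2, 0.98) and the fit also without heterozygous replicate 2 (Pax6, 1.57). Without 1 array at a time, Eya2 ranged from 0.48 to 0.96 and Pax6 from 0.76 to 1.44. The sign of Eya1 turned with array weights (-0.14) and in the added fits (-0.15 in both), ranging from -0.18 to 0.48 when an array was left out. Insm1 turned with array weights (0.13) and in the added fits (0.17 and 0.04), ranging from -0.49 to 0.13. Neurog1 ranged from -0.21 to 0.29 and Sox2 from -0.52 to 0.33, and Sox2 turned with quantile normalization (0.0097) and median centring (0.0067). The median of the 8 was 0.22 to 0.40 without an array and 0.38 after quantile normalization without null replicate 1. Over all genes the 110 calls became 24 among genes above the median mean, 740 with array weights, 8 without moderation, 40 to 531 without an array (531 without null replicate 1), 558 after quantile normalization without it and 332 without both arrays. The labels do not say whether equal replicate numbers pair the samples. Correlations of same-numbered deviations from the group means were 0.225, -0.332 and 0.541. They cannot decide it, because deviations within a group depend on each other. Heterozygous replicate 3 had 0.482 with null replicate 2 and 0.541 with null replicate 3. A replicate block in limma gave 88 calls, 0 of them among the 8 genes, and Pax6 differed by 1.01 under it (adjusted p = 0.357). The causes of these moves were not tested. With 3 arrays a group, an exact permutation of a single value cannot go below p = 0.1.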

Other observations

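Cells outside the neuronal lineage could carry some of the 8 genes, and their lists are given for both fits. Over all arrays the median differences were 0.38 for ensheathing glia, 0.97 for mesenchyme and bone, 0.33 for endothelium, 0.82 for myeloid cells, 0.24 for mast cells, 0.10 for erythroid cells and -0.11 for melanocytes. Without null replicate 1 they were, in the same order, 0.07, -0.01, -0.14, 0.10, -0.06, -0.02 and -0.04. By limma 0 genes of these lists were called in either fit. At an unadjusted p under 0.05 stood 1 mast cell gene and 0 of the others over all arrays. Without null replicate 1 they were 2 myeloid and 2 melanocyte genes, all higher, 1 mast cell gene in each direction, and 1 lower gene each for mesenchyme and bone, ensheathing glia and endothelium.

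The lens list held a gene with another pattern. Bfsp2, known as a lens filament gene, stood at 7.42, 7.05 and 7.42 on the heterozygous arrays and at 7.33, 9.18 and 8.91 on the null arrays, and was not high on heterozygous replicate 2. It differed by 1.17 over all arrays (adjusted p = 0.529) and, leaving out null replicate 1, rose by 1.74 (SE 0.15, adjusted p = 0.00306). It was named after its value was seen.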
